A study of Mus musculus with 5 samples.

Results

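The intercalated disc is the junction that joins cardiomyocytes end to end, and 9 of its genes were followed here in spatial transcriptomes of the neonatal mouse heart: Gja1, Cdh2, Ctnna3, Vcl, Dsp, Pkp2, Jup, Dsg2 and Dsc2. The members were taken by gene symbol, and all 9 had a row in each of the 5 expression tables, among 13711 genes that the tables shared. The tissue came from wild-type C57BL/6 mice that were operated on at postnatal day 1, either with ligation of the left anterior descending artery to cause a myocardial infarction (MI) or with a sham operation, and whose hearts were taken at 3 or 7 days. Sham day 3, MI day 3 and sham day 7 were represented by 1 transverse section each and MI day 7 by 2 sections. Sections were cut a fixed distance below the ligature, or at the matching level of sham hearts, and were read on Visium slides, on which barcoded spots each capture the poly(A) RNA of several cells. No genotype or drug was varied. The labels did not give the sex of the animals: Xist was listed in the tables of sham day 3 and MI day 7 replicate 1 (39.0 and 48.5 CPM, counts scaled to a common total), and Ddx3y in those of MI day 3, sham day 7 and MI day 7 replicate 2 (31.6 to 35.6 CPM).

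Cardiomyocytes are held together at the disc by adherens junctions, which anchor the contractile actin filaments, and by desmosomes, which anchor the desmin filaments, while gap junction channels pass current from cell to cell. In the newborn ventricle these proteins are spread along the sides of the cardiomyocytes and gather at the cell ends during postnatal growth. Among the members, Gja1 encodes connexin 43, the main ventricular gap junction channel. Cdh2 encodes N-cadherin, the adhesion receptor of the adherens junction, and Ctnna3 and Vcl encode αT-catenin and vinculin, which link cadherin complexes to actin. Desmosomal cadherins are encoded by Dsg2 and Dsc2, the plaque proteins that bind them by Jup (plakoglobin) and Pkp2 (plakophilin-2), and desmoplakin, the link to desmin, by Dsp. Variants of the desmosomal genes are a known cause of arrhythmogenic cardiomyopathy.

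The 5 sections held 3364 spots, with 376 to 960 spots and a median of 20842.5 to 53940 raw unique molecular identifiers (UMIs) per spot in a section. Cardiomyocyte markers, summed over 8 genes, lay between 36142 and 44456 CPM in every section. Of the 3 atrial markers in the tables, Myl4 and Myl7 were at no more than 76.8 CPM, and Nppa, which injury also induces in the ventricle, was at 8064 CPM in MI day 3, 1258 CPM in MI day 7 replicate 2 and 158 to 612 CPM in the other 3 sections. Immune markers (6 genes) summed to 927 CPM in MI day 3 and to 98.0 to 256 CPM in the other 4 sections, and fibroblast markers (6 genes) to 4155 to 7016 CPM, highest in MI day 7 replicate 2. The mitochondrial share of the CPM total was 24.6% in MI day 7 replicate 1 and 13.8% to 15.7% elsewhere. In MI day 3, MI day 7 replicate 1 and MI day 7 replicate 2, 10, 5 and 6 spots lay outside the continuous tissue area, and no call on a member changed without them. Since a spot holds several cells, fewer cardiomyocytes under a spot and less of an RNA per cardiomyocyte cannot be told apart.

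In the GRCm38 assembly, Gja1 (ENSMUSG00000050953.10) lies at chr10:56377330-56402513 and Ctnna3 (ENSMUSG00000060843.11) at chr10:63430098-65003667, both on the plus strand. The 3 cadherin genes lie on chromosome 18: Cdh2 (ENSMUSG00000024304.14) at chr18:16588877-16809246 on the minus strand, Dsc2 (ENSMUSG00000024331.11) at chr18:20030633-20059554 on the minus strand and Dsg2 (ENSMUSG00000044393.15) at chr18:20558074-20604521 on the plus strand. Dsp (ENSMUSG00000054889.10) is at chr13:38151294-38198577, Pkp2 (ENSMUSG00000041957.15) at chr16:16213318-16272712 and Vcl (ENSMUSG00000021823.10) at chr14:20929398-21033676, all on the plus strand, and Jup (ENSMUSG00000001552.14) at chr11:100368958-100397763 on the minus strand. All are protein-coding. The 3′ end of Vcl overlaps that of Ap3m1 on the opposite strand, which was itself present at 37.7 CPM.

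Section levels are given as the mean CPM over the spots of a section. Gja1 measured 512 CPM in sham day 3, 567 CPM in MI day 3, 432 CPM in sham day 7, and 457 and 442 CPM in the MI day 7 sections (449.6 ± 10.2, SD, n = 2). Both day 3 sections were above the 3 day 7 sections, and the gaps from MI day 7 replicate 1 to sham day 3 and from there to MI day 3 exceeded the residual spread (SD 0.13 on the log2 scale), while the 3 day 7 values did not differ beyond it. In the raw table of sham day 3, 5855 Gja1 UMIs were counted (exact 95% Poisson interval 5706 to 6007, counting error only) and 99.6% of spots held at least 1.

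Among the adherens junction genes, Cdh2 measured 256, 252, 185, 232 and 190 CPM in sham day 3, MI day 3, sham day 7 and the 2 MI day 7 sections (MI day 7 211 ± 30.3, SD, n = 2). Its day 3 sections were again the highest, and the MI day 7 sections differed from each other by more than the residual spread. Vcl measured 164, 161, 135, 137 and 143 CPM in the same order, with both day 3 sections above the rest. Ctnna3 was sparse, at 14.3, 11.3, 14.6, 12.8 and 13.4 CPM, and in sham day 3 its 163 UMIs (139 to 190) reached only 24.3% of spots. Lowest in MI day 3, it did not separate the days.

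Among the desmosomal genes, Dsp and Dsg2 varied most between sections, and Jup and Dsc2 least. Dsp measured 257 CPM in sham day 3, 361 CPM in MI day 3, 286 CPM in sham day 7, and 278 and 316 CPM in MI day 7 (297 ± 26.6, SD, n = 2), with MI day 3 above the next section by more than the residual spread. Dsg2 measured 36.7, 30.5, 24.9, 24.3 and 24.3 CPM, in the order used above, a 1.51-fold range, the widest of the 9 genes. Pkp2 stayed between 103 CPM in sham day 7 and 127 CPM in sham day 3. Jup ran from 175 CPM in sham day 7 to 197 CPM in sham day 3, a 1.12-fold range and the narrowest of the 9, and Dsc2 from 30.5 CPM in MI day 3 to 35.4 CPM in sham day 3. For Jup and Dsc2, none of the 4 gaps between neighbouring sections in the order of levels exceeded the residual spread (SD 0.13 for each, log2 scale).

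The 9 genes together made up 1389.6 CPM in sham day 7 and 1713 CPM in MI day 3, the lowest and the highest section. Gja1 supplied 29.9% to 33.1% of that total. Dsp supplied 16.1% in sham day 3 and 18.8% to 21.3% in the other 4 sections, and Cdh2 12.8% to 16.0%.

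**Figure D1:**
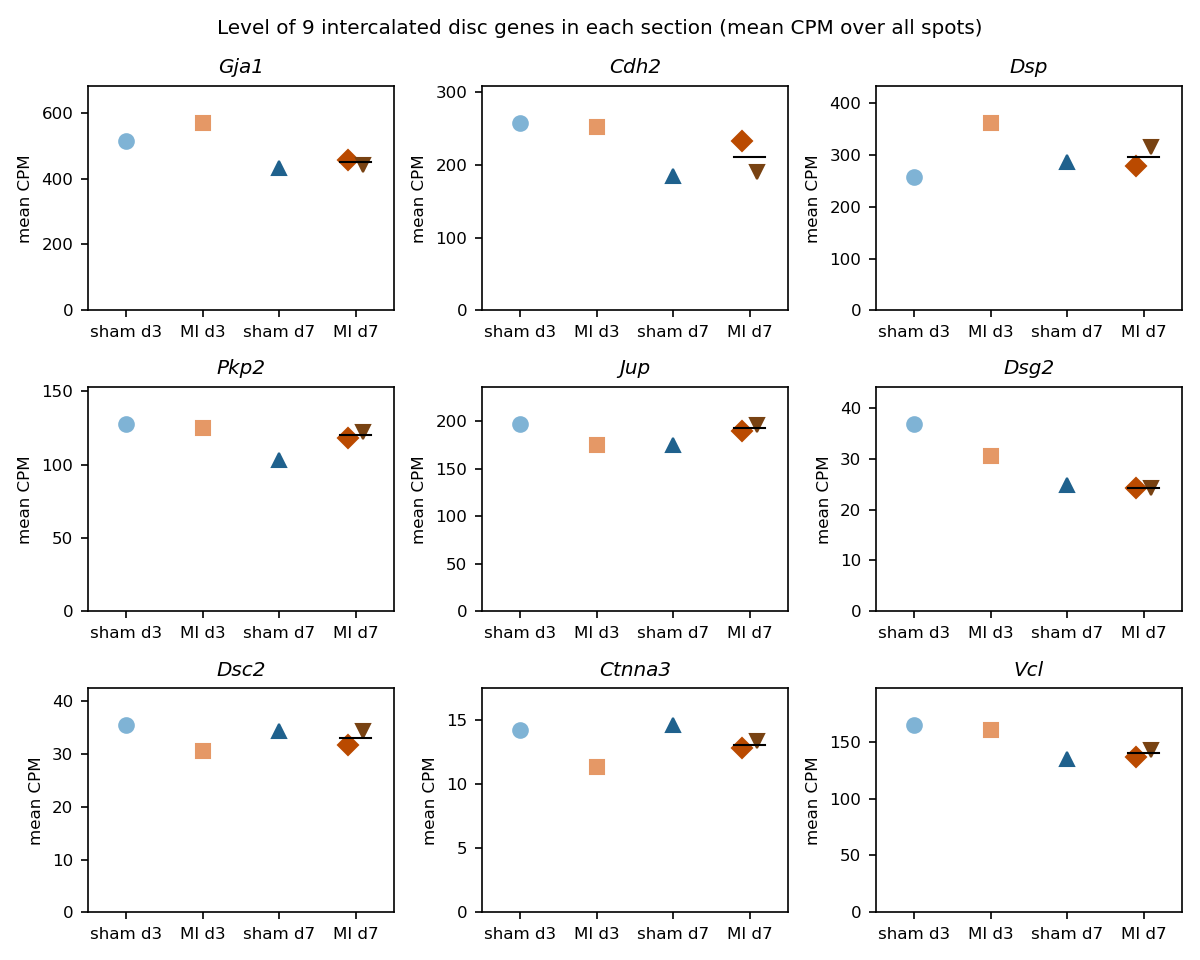
Level of each of the 9 genes in the 5 sections, as the mean CPM over spots on a linear axis from 0, with 1 symbol per section and a black line at the mean of the 2 MI day 7 sections (no error bars). Gja1, Cdh2, Dsg2, Vcl and, by a small margin, Pkp2 are higher in the 2 day 3 sections than in the 3 day 7 sections, and Dsp is highest in MI day 3 (361 CPM) and lowest in sham day 3 (257 CPM). Separation by day was not counted over all genes, of which 22.6% were estimated higher at day 7.

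To ask whether infarction changed the disc genes, MI sections were compared with sham sections with the day as a covariate (limma on log2(CPM + 1), 2 residual degrees of freedom, two-sided, Benjamini-Hochberg over 12933 genes). None of the 9 genes passed an adjusted p of 0.05 and none had an unadjusted p under 0.05, against 0.00773% and 8.1% of all genes tested. Dsp had the largest estimate, 0.24 higher in MI on the log2 scale (SE 0.14, 95% interval -0.10 to 0.58, adjusted p = 0.737 by limma). That estimate rested on day 3: without either day 3 section it was 0.05, and without sham day 7 it was 0.49. Ctnna3 was 0.22 lower on the log2 scale (-0.22, SE 0.13, interval -0.53 to 0.09, adjusted p = 0.734 by limma), and it was lower in MI at both days. Gja1 (0.09, interval -0.18 to 0.37), Cdh2 (0.09, interval -0.23 to 0.42) and Pkp2 (0.11, interval -0.16 to 0.39) were estimated slightly higher, and Dsg2 (-0.13) and Dsc2 (-0.12) slightly lower. In all, 6 genes were estimated higher and 3 lower, with a median of 0.02 against -0.01 over all genes. The intervals leave room for changes of up to 1.49-fold in Dsp and 1.29-fold in Gja1.

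At day 3, with 1 section per group and therefore no test, Dsp was 1.40-fold higher in MI (log2 ratio 0.49) and Gja1 1.11-fold higher (0.15), while Ctnna3 (-0.31), Dsg2 (-0.26), Dsc2 (-0.21) and Jup (-0.16) were lower and Cdh2, Pkp2 and Vcl lay within 0.03 of sham. None of the 9 genes reached 1.5-fold, which 11.3% of all genes did. The MI section had Ddx3y and the sham section Xist, so the operation and the sex of these animals cannot be told apart at day 3. At day 7 the 2 MI sections were set against 1 sham section (limma contrast, 1 residual degree of freedom), with the spread within a group at that day known from the MI sections alone and the lone sham section assumed to vary like them. Under that assumption none of the 9 passed an adjusted p of 0.05, against 0.232% of all genes, and none had an unadjusted p under 0.05, against 4.11%. The adjusted p was 1.00 for each by limma, and the estimates ran from -0.15 (Ctnna3) to 0.22 (Pkp2, interval -0.27 to 0.70). Dsp, which was 0.49 higher at day 3, was 0.05 higher at day 7 (interval -0.48 to 0.58), and the difference between the days was not tested.

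Restricting each section to spots in which the score for CM1, the most abundant cardiomyocyte population, was the highest of the 11 deposited cell type scores gave 211 to 491 spots per section and a like result. None of the 9 genes passed an adjusted p of 0.05 or an unadjusted p of 0.05 (limma, 12748 genes tested), against 0.251% and 7.63% of all genes. In these spots Dsp measured 265 CPM in sham day 3, 404 CPM in MI day 3, 299.8 CPM in sham day 7, and 283 and 337 CPM in MI day 7. The MI estimate for Dsp was 0.29 (SE 0.17, adjusted p = 0.780 by limma). Gja1 measured 519, 617.7, 440.0, 458 and 469 CPM, in the same order of sections, with an estimate of 0.15 (interval -0.17 to 0.47).

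Day 7 sections were compared with day 3 sections in the same fit, with the operation as the covariate. None of the 9 genes passed an adjusted p of 0.05, against 0.595% of all genes, and 3 of 9 had an unadjusted p under 0.05, against 25.1%. These were Dsg2 (-0.41, SE 0.12, adjusted p = 0.129 by limma), Cdh2 (-0.35, SE 0.14, adjusted p = 0.178) and Gja1 (-0.30, SE 0.12, adjusted p = 0.183). Each had both day 3 sections above all 3 day 7 sections, a separation that was not counted over all genes. Vcl (-0.24, adjusted p = 0.226 by limma) and Pkp2 (-0.16, adjusted p = 0.395) showed the same separation, Pkp2 with 127 and 125 CPM at day 3 and 103, 119 and 122 CPM at day 7. Jup (0.00), Dsc2 (0.05), Ctnna3 (0.12) and Dsp (-0.10) did not separate the days. With 6 of 9 genes lower at day 7, the median was -0.16, close to the -0.18 over all genes, of which 22.6% were estimated higher. That general shift depended on the scaling: under median-of-ratios scaling the median of all genes was -0.01, and 5 of the 9 were higher and 4 lower at day 7. Relative to the shift of all genes, the estimates were -0.11 for Gja1, -0.17 for Cdh2 and -0.23 for Dsg2 on the log2 scale.

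**Figure D2:**
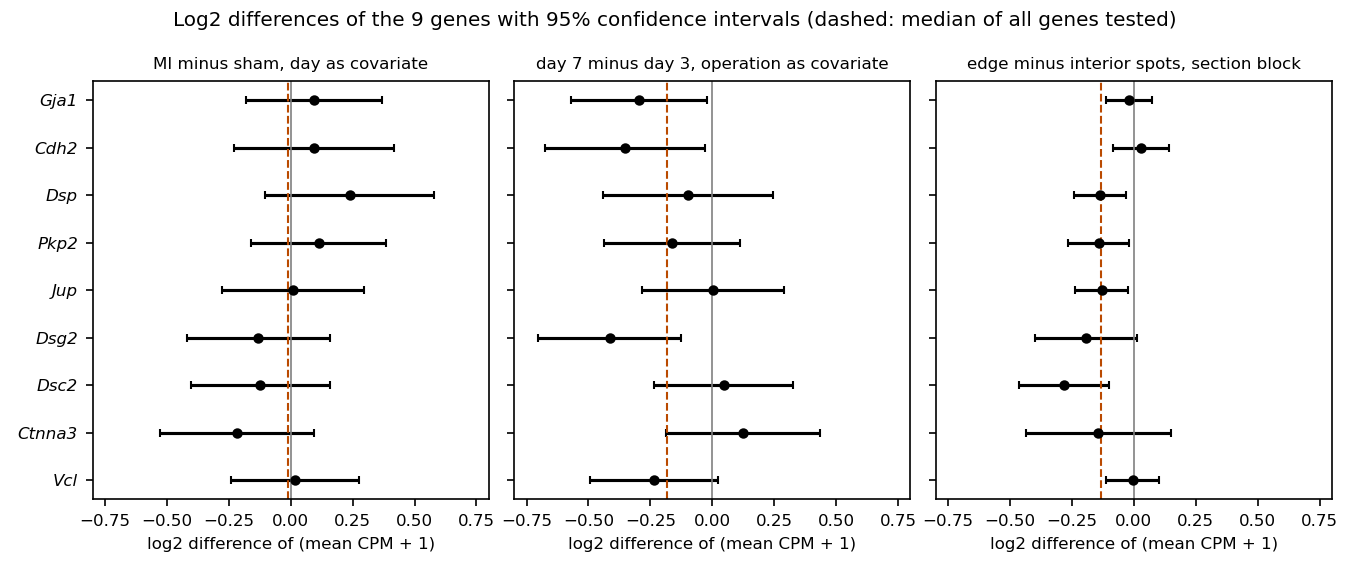
Log2 differences of the 9 genes with 95% intervals from limma, for MI against sham across days, day 7 against day 3, and edge against interior spots, with a dashed line at the median of all genes tested. Every interval for MI includes 0, those of Gja1, Cdh2 and Dsg2 for day and of Dsp, Pkp2, Jup and Dsc2 for position lie below 0 before adjustment, none of the 9 passing an adjusted p of 0.05.

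The position of a spot does not depend on its expression values, so the rim of each section could be tested against its interior. Edge spots, which lack at least 1 of the 6 neighbours in the grid, numbered 86, 86, 122, 102 and 163 in sham day 3, MI day 3, sham day 7 and the 2 MI day 7 sections. All spots outside the continuous tissue area were among them, 10 in MI day 3 and 5 and 6 in the MI day 7 sections. Those of MI day 3 had a median of 534.5 raw UMIs. Against the interior of the same section (limma with the section as a block, 13308 genes), none of the 9 genes passed an adjusted p of 0.05, against 4.79% of all genes, and 4 of 9 had an unadjusted p under 0.05, against 25.1%. Those 4, the desmosomal genes Dsc2, Dsp, Jup and Pkp2, were all estimated lower at the edge. The remaining desmosomal gene, Dsg2 (-0.19), and Ctnna3 (-0.14) were also estimated lower, neither with an unadjusted p under 0.05. Dsc2 measured 27.5, 23.8, 31.6, 31.0 and 27.2 CPM at the edge and 36.8, 32.5, 34.8, 31.9 and 36.1 CPM inside, lower at the edge in 5 of 5 sections (-0.28, SE 0.09, adjusted p = 0.0624 by limma). The estimates for Dsp (-0.14, adjusted p = 0.101 by limma), Jup (-0.13, adjusted p = 0.128) and Pkp2 (-0.14, adjusted p = 0.138) were lower at the edge in 4 of 5 sections, MI day 3 being the exception in each. Sections of each sign were not counted over all genes, of which 17.4% were estimated higher at the edge. Gja1 (-0.02, interval -0.11 to 0.07), Vcl (-0.01, interval -0.11 to 0.10) and Cdh2 (0.03, interval -0.09 to 0.14) had estimates near 0.

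The edge also held a higher mitochondrial share in each section, 16.2% to 30.2% against 13.1% to 23.7% inside, and more blood RNA, a sum over 4 genes of 7372, 13625, 14873, 10743 and 17289 CPM against 3454, 9926, 5142, 7510.0 and 8227 CPM inside. The cardiomyocyte marker sum was lower at the edge in 4 of 5 sections, by most in MI day 7 replicate 2 (37327 against 43455 CPM), with sham day 7 the exception. The fibroblast sum was higher at the edge in 5 of 5 sections (10157 against 6201 CPM in MI day 7 replicate 2). The immune sum was higher there in 4 of 5, with sham day 3 the exception (1338 against 805 CPM in MI day 3 and 521 against 187 CPM in MI day 7 replicate 2), and the epicardial sum, over 3 genes, in 4 of 5, with sham day 7 the exception (67.8 against 24.7 CPM in MI day 3). The part of these in the edge values was not tested. All genes had a median of -0.13 at the edge, with 17.4% estimated higher, next to -0.14 for the 9 genes, of which 1 was higher and 8 lower. Under median-of-ratios scaling 5 of the 9 were higher and 4 lower, and without mitochondrial and haemoglobin genes in the total 3 were higher and 6 lower. When the edge differences of MI and sham sections were compared (limma, 13308 genes), none of the 9 passed an adjusted p of 0.05, against 0% of all genes, and 1 of 9 had an unadjusted p under 0.05, against 5.67%. That gene was Ctnna3, which was higher at the edge in both sham sections (18.3 against 13.5 CPM and 15.3 against 14.5 CPM) and lower in the 3 MI sections (8.07 against 12.3 CPM, 11.03 against 13.1 CPM and 10.2 against 14.2 CPM), an interaction of -0.64 (SE 0.25, unadjusted p = 0.0198, adjusted p = 0.873 by limma).

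CM4 is a cardiomyocyte population that the study followed for its entry into the cell cycle after injury, and spots with CM4 as their highest score numbered 57, 40, 58, 76 and 86. Because the scores were made from the same expression values, differences between CM4-dominant and CM1-dominant spots are described and not tested. Dsp was lower in CM4-dominant spots in all 5 sections, at 239, 356, 252, 281 and 311 CPM, against 265, 404, 299.8, 283 and 337 CPM in CM1-dominant spots. Its mean log2 difference was -0.14 ± 0.09 (SD, n = 5), and it was the only one of the 9 genes lower in every section, a pattern held by 2.17% of all genes. Gja1 (-0.11 ± 0.09) and Pkp2 (-0.17 ± 0.16) were lower in 4 of 5 sections, with MI day 7 replicate 1 the exception in each. Vcl (0.04 ± 0.15) was higher in 4 of 5, with MI day 7 replicate 2 the exception. Cdh2 (-0.04 ± 0.14) and Dsg2 (-0.02 ± 0.33) changed sign between sections. The median of the 9 means was -0.04, and that of all genes 0.06. The cardiomyocyte marker sum was likewise lower in CM4-dominant spots in all 5 sections, at 37942, 36457, 42215, 42757 and 39165 CPM against 45495, 39898, 47202, 42866 and 45450 CPM. The fibroblast sum was higher there in all 5, most in MI day 3 (8171 against 3434 CPM), as were the immune sum (998 against 279 CPM in MI day 3) and the mural sum, over 5 genes of vessel wall cells (1227 against 633 CPM). The part of these sums in the Dsp difference was not tested.

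Jup, Dsc2 and Ctnna3 shared another pattern: each was lower in CM4-dominant spots of both sham sections and higher in those of all 3 MI sections, as were 15.8% of all genes. Jup measured 152 and 146 CPM in CM4-dominant spots of sham day 3 and sham day 7, against 202 and 168 CPM in CM1-dominant spots. In MI day 3 and the 2 MI day 7 sections, the CM4-dominant values of Jup (185, 187 and 198 CPM) were 0.02 to 0.04 above the CM1-dominant values on the log2 scale. Dsc2 reached 44.9 CPM in CM4-dominant spots of MI day 7 replicate 2 against 36.1 CPM, and Ctnna3 reached 19.7 CPM in those of MI day 3 against 11.6 CPM. The CM4 minus CM1 difference was also compared between MI and sham by a limma interaction. The classes come from the same expression values, so its p-values are not independent of the choice of spots and serve as a description. None of the 9 genes passed an adjusted p of 0.05 (limma, 13285 genes), against 1.73% of all genes, and 1 of 9, Jup, had an unadjusted p under 0.05, against 20.5%. The interaction was 0.33 for Jup (SE 0.13, adjusted p = 0.171 by limma), 0.34 for Dsc2 (adjusted p = 0.332) and 0.52 for Ctnna3 (adjusted p = 0.323). The median over all genes was 0.28, so the values of Jup and Dsc2 were 0.05 and 0.06 above it. With median-of-ratios scaling, where the median of all genes was 0.02, the interactions of Jup, Dsc2 and Ctnna3 were 0.05, 0.07 and 0.25. The mitochondrial share ran the other way, higher in CM4-dominant spots of both sham sections and lower in those of the 3 MI sections, at 22.8% and 20.5% in CM4-dominant against 16.3% and 16.2% in CM1-dominant spots of the sham sections, and at 9.70%, 20.8% and 14.1% against 17.0%, 28.2% and 17.3% in the MI sections. Interior spots made up 25 of 57 and 33 of 58 CM4-dominant spots in the sham sections, and 35 of 40, 75 of 76 and 73 of 86 in the MI sections. The blood gene sum was higher in CM4-dominant spots of sham day 3 (7877 against 3561 CPM) and sham day 7 (18356 against 5930 CPM), lower in those of MI day 3 (6213 against 10455 CPM) and 8996 against 8026 and 10180.1 against 9325 CPM in the MI day 7 sections. The part of these in the pattern was not tested.

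**Figure D3:**
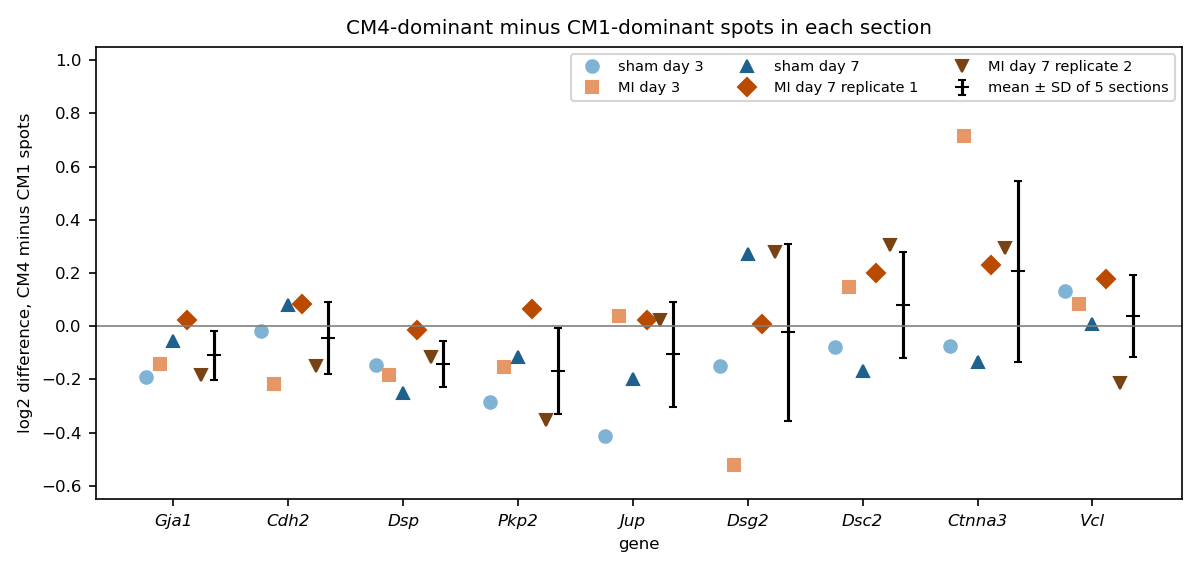
Log2 difference between CM4-dominant and CM1-dominant spots for the 9 genes, with 1 symbol per section and a bar for the mean ± SD of the 5 sections. Dsp lies below 0 in all 5 sections, and Jup, Dsc2 and Ctnna3 lie below 0 in both sham sections and above 0 in the 3 MI sections.

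In the infarcted day 3 heart, the spots with macrophage as their highest score had the lowest level of 7 of the 9 genes among all classes of at least 20 spots in the 5 sections, Jup and Vcl being the exceptions. Over these 20 spots all 9 genes were below their CM1-dominant level in the same section, as a description without a test. Gja1 measured 264 CPM in macrophage-dominant against 617.7 CPM in CM1-dominant spots, a log2 difference of -1.22. Cdh2 measured 152 against 277 CPM, Dsp 195 against 404 CPM, and Pkp2 69.6 against 141 CPM. Dsc2 was lowest relative to CM1-dominant spots, at 11.3 against 32.5 CPM (-1.44), followed by Ctnna3 at 4.25 against 11.6 CPM (-1.26) and Dsg2 at 15.5 against 36.0 CPM (-1.16). Jup (-0.22) and Vcl (-0.28) were less reduced, at 154 against 180 CPM and 135 against 164 CPM. Of the 9 genes, 6 were at least 2-fold lower, against 8.4% of all genes. Depth was not lower there, with a median of 37818.5 raw UMIs per spot against 33890. The cardiomyocyte marker sum was 18450 against 39898 CPM, the fibroblast sum 15008 against 3434 CPM and the immune sum 8876 against 279 CPM, and their part in the differences was not tested. In sham day 3, sham day 7 and MI day 7 replicate 1, where 21 to 70 spots were macrophage-dominant, no such reduction was present, and the differences of the 9 genes ran from -0.31 to 0.37. MI day 7 replicate 2 had fewer than 20 such spots.

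Fibroblast-dominant spots gave a weaker form of the same picture in MI day 3 and MI day 7 replicate 2. The median log2 difference of the 9 genes was -0.40 and -0.30 there, against 0.20 and 0.17 over all genes. In sham day 3, sham day 7 and MI day 7 replicate 1 it was -0.03, -0.03 and 0.01, against 0.15, 0.10 and 0.29. In MI day 3 (22 spots) 8 of 9 genes were lower than in CM1-dominant spots, led by Dsg2 (-1.15), Pkp2 (-0.83) and Ctnna3 (-0.70), while Vcl, a component of focal adhesions as well as of the disc, was higher (0.30). In these MI day 3 spots 1 of the 9 genes was at least 2-fold lower, against 5.405% of all genes. In MI day 7 replicate 2 (94 spots) the largest differences were in Dsc2 (-0.73), Dsg2 (-0.54) and Pkp2 (-0.44). In the MI day 3 spots the cardiomyocyte marker sum was 26932 against 39898 CPM and the fibroblast sum 11489 against 3434 CPM, and their part in the differences was not tested. Across all 5 sections, Dsp, Pkp2 and Ctnna3 were lower in fibroblast-dominant spots in 5 of 5, and Vcl was higher in 4 of 5. The differences closest to 0 were -0.08 for Dsp, -0.01 for Pkp2 and -0.03 for Ctnna3. Neither such patterns nor genes lower by any amount within a single section were counted over all genes for this class.

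**Figure D4:**
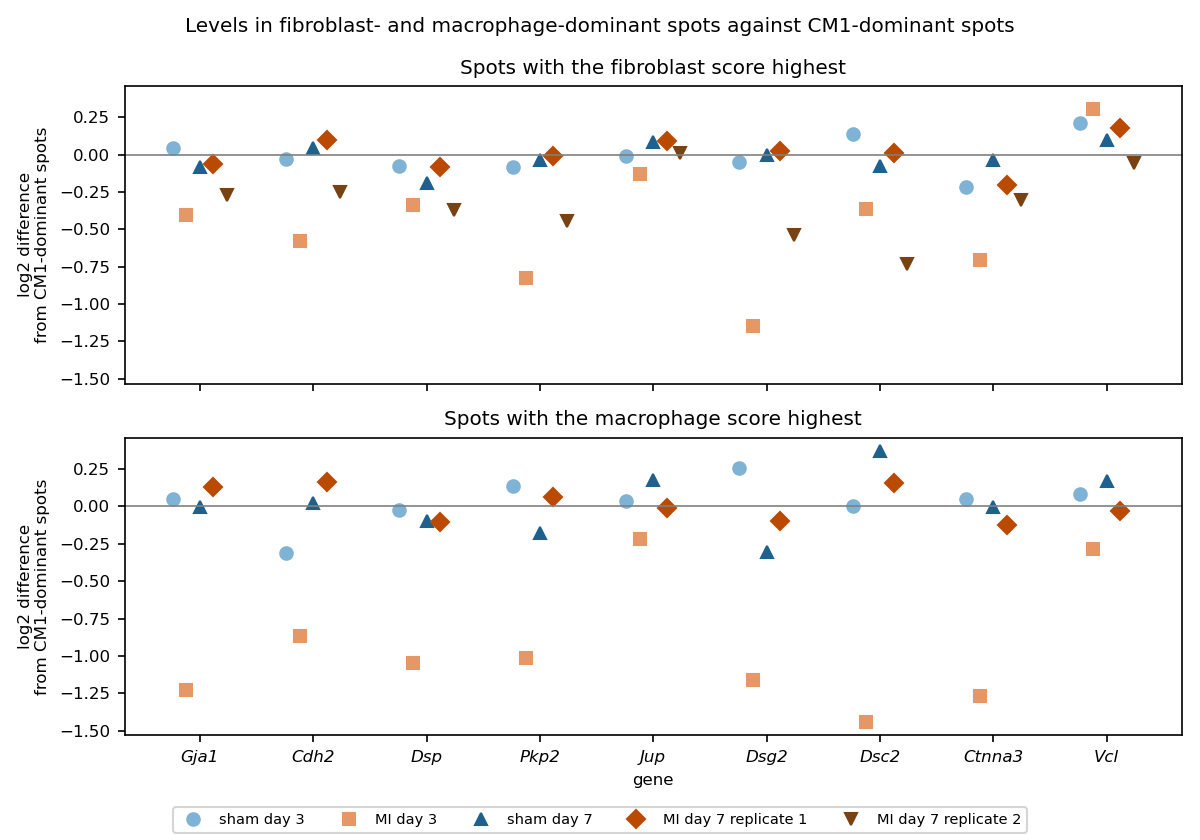
Log2 difference of the 9 genes between fibroblast-dominant (top) or macrophage-dominant (bottom) spots and CM1-dominant spots of the same section, with 1 symbol per section with at least 20 such spots. In the macrophage-dominant spots of MI day 3 all 9 genes are below 0, from -0.22 for Jup to -1.44 for Dsc2, whereas the other sections lie between -0.31 and 0.37.

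Between single spots, Gja1, Dsp and Cdh2 formed patches in MI sections more than the sparse members did. Moran's I, which is 0 when neighbouring spots are unrelated and rises as like values adjoin, was 0.27 for Gja1, 0.23 for Dsp and 0.17 for Cdh2 in MI day 3. For Gja1 it reached 0.05 in sham day 3 and 0.04 in sham day 7, and 0.10 and 0.11 in the 2 MI day 7 sections. For Dsp it was 0.02 in both sham sections and 0.08 in both MI day 7 sections. These values are descriptions of single sections that differ in depth. For Ctnna3, detected in 23.6% to 50.8% of spots, the mean of the 5 sections was -0.00085.

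**Figure D5:**
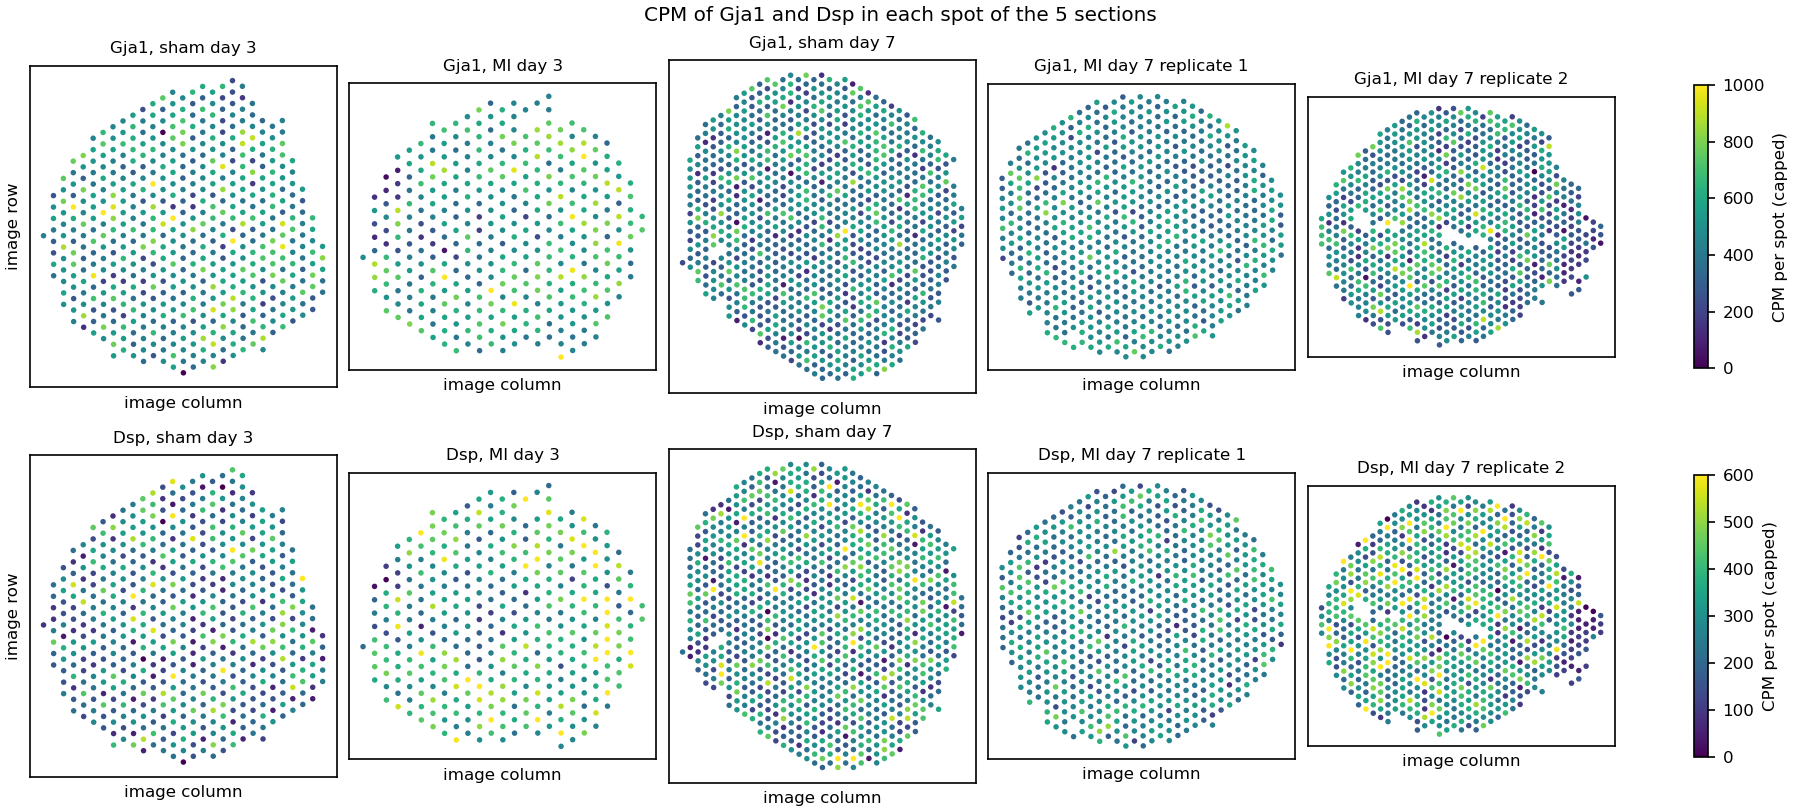
Spot maps of Gja1 (top) and Dsp (bottom) in the continuous tissue area of the 5 sections, in image rows and columns, with colour for the CPM of a spot, capped at the top of each colour scale. Neighbouring spots resemble one another most in MI day 3, where Moran's I, taken over all spots of the section, is 0.27 for Gja1 and 0.23 for Dsp.

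The members followed one another only weakly from spot to spot. Over the 36 pairs, the mean Spearman rho of the 5 sections ran from -0.02 to 0.13, the highest for Gja1 with Dsp, and 13 pairs were above 0 in every section. The points share a library and a depth, and counts per spot were low for Dsg2, Dsc2 and Ctnna3. Genes whose pattern over spots was most like that of Gja1, among 5843 genes with a mean of at least 20 CPM, were Atp2a2 (mean rho 0.25), Pln (0.24) and Tnnt2 (0.22), the first 2 of which encode the calcium pump of the sarcoplasmic reticulum and its regulator phospholamban. Cdh2 also went with Atp2a2 (0.25) and Pln (0.21), and with Fhl2 (0.21). Dsp went with the sarcomere genes Tnnt2 (0.27), Myh6 (0.24) and Mybpc3 (0.22), Pkp2 with Fabp3, Myl2 and Tnnt2 (0.19 each) and Jup with Actc1 (0.15), Myl2 (0.14) and Crip2 (0.13). The closest genes to Dsg2, Dsc2, Ctnna3 and Vcl reached only 0.13 (Smim5), 0.11 (Atp5g3), 0.07 (Hadhb) and 0.10 (Serbp1). With the sum of the cardiomyocyte markers, the mean rho was 0.25 for Dsp, 0.23 for Pkp2 and 0.21 for Gja1, down to 0.04 for Vcl.

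Of 41 other genes of the disc that were listed, 38 were in the tables and tested. In total 5 of the 38 fell at the edge and none rose by the adjusted p (limma), against 4.05% and 0.736% of all genes, and 13 had an unadjusted p under 0.05, against 25.1%. The lowest adjusted p was that of Gja5, which encodes connexin 40 of the atria and conduction system. Gja5 measured 13.9, 2.70, 9.63, 6.17 and 9.15 CPM at the edge and 28.5, 14.6, 16.1, 13.0 and 14.7 CPM inside in sham day 3, MI day 3, sham day 7 and the 2 MI day 7 sections (-1.07, SE 0.17, adjusted p = 0.000691 by limma). It was lower at the edge in 5 of 5 sections, and the call was lost in 1 alternative, the fit without the section block (adjusted p = 0.710). The other 4 were Gja4, which encodes connexin 37 of the arterial endothelium (-0.48), Xirp2, an actin-binding protein of the disc (-0.45), Dbn1, which encodes drebrin (-0.31), and Flnc, which encodes filamin C (-0.20). Their calls were lost under median-of-ratios scaling, without mitochondrial and haemoglobin genes in the total, in CM1-dominant spots alone and without the section block (adjusted p = 0.710 to 0.782 by limma in the last), and that of Gja4 in spots with at least 5000 raw UMIs. Over the 5 genes, 33 of 80 recomputed values lost the call. Those of Xirp2, Dbn1 and Flnc were also lost without sham day 3, MI day 3, sham day 7 or MI day 7 replicate 1, and that of Gja4 without any of the last 3 (adjusted p = 0.0628 to 0.135 by limma). By group, 3 of 9 connexin and gap junction partner genes, 2 of 15 scaffold genes, 0 of 10 adherens junction genes and 0 of 4 desmosome genes fell at the edge, and 2 of the 10 and 1 of the 4 had an unadjusted p under 0.05 (limma). Gja1 itself had an edge difference of -0.02 in the same fit, and the contrast between the connexin genes was not tested.

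Between day 3 and day 7, 1 of the 38 genes passed, against 0.595% of all genes, and 6 had an unadjusted p under 0.05, against 25.1% (limma). Itga7, a laminin receptor subunit of striated muscle, measured 39.7 and 38.5 CPM in the day 3 sections and 72.0, 80.6 and 77.7 CPM in the day 7 sections (0.94, SE 0.11, adjusted p = 0.0316 by limma). The groups did not overlap, but the call was lost without MI day 3 (adjusted p = 0.220) or without MI day 7 replicate 2 (adjusted p = 0.0626). Sorbs2, an actin-binding adaptor, had the next largest estimate, -0.53 (adjusted p = 0.116 by limma). For MI against sham across days none of the 38 passed and 3 had an unadjusted p under 0.05, against 0.00773% and 8.1% of all genes (limma). Among listed genes with a mean of at least 20 CPM the largest estimates were Xirp2 (0.95, adjusted p = 0.647 by limma) and Perp (-0.37, adjusted p = 0.504). Gja5, below that level, had -0.60 (unadjusted p = 0.0221, adjusted p = 0.528 by limma). Xirp2 measured 12.4, 53.1, 37.8, 31.2 and 56.9 CPM, a log2 ratio of 2.02 at day 3. Without sham day 7 its MI estimate is that same difference between 1 section and 1 section, and the adjusted p of 0.000874 by limma then takes its residual spread only from the 2 MI day 7 sections, with the lone sections assumed to vary like them. Zyx, which encodes zyxin, was 0.45 higher in MI at day 3. At day 7, where the lone sham section is again assumed to vary like the MI sections, none of the 38 passed by the adjusted or the unadjusted p, against 0.232% and 4.11% of all genes (limma), with Cxadr at 0.45 and Perp at -0.50. Within CM1-dominant spots none of the 38 passed and 1 had an unadjusted p under 0.05, against 0.251% and 7.63% (limma), with Perp at -0.36 and Xirp2 at 0.32.

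In CM4-dominant spots, Xirp2 (0.99) and Gja4 (0.31) had the largest mean differences from CM1-dominant spots among the listed genes with a mean of at least 20 CPM, and Gja5, below that level, had 0.69. Xirp2 measured 214 CPM in the CM4-dominant spots of MI day 3 against 22.1 CPM in its CM1-dominant spots, and 106 against 40.4 CPM in MI day 7 replicate 2. In sham day 3 and sham day 7 it was 10.7 against 11.3 CPM and 35.7 against 36.2 CPM. Nppa, a stress-induced natriuretic peptide gene that is also an atrial marker, reached 22578 CPM in those MI day 3 spots. The fitted CM4 minus CM1 difference was higher in MI than in sham past an adjusted p of 0.05 (limma) for 3 of the 38 genes, Xirp2, Gja5 and Dbn1, against 1.73% of all genes, and 12 of the 38 had an unadjusted p under 0.05, against 20.5%. These p-values are not independent of the choice of spots, and the differences are a description. Over the 3 genes, 25 of 45 recomputed values did not pass that threshold. Those of all 3 did not under median-of-ratios scaling, without mitochondrial and haemoglobin genes in the total, with a pseudocount of 0.1, in interior spots alone, and without sham day 3, MI day 3 or MI day 7 replicate 2. Those of Xirp2 did not without sham day 7, with a pseudocount of 5 or in the continuous tissue area alone either, and that of Gja5 did not with classes set by a score of at least 0.5. For the edge difference in MI against sham none of the 38 passed and 2 had an unadjusted p under 0.05, against 0% and 5.67% (limma), with the largest estimates in Gja4 (-0.56) and Ank3 (-0.41).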

How the data were processed

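Visium sections of 5 hearts were processed by the authors with Space Ranger (version not given in the sources used here) on mm10 and with Seurat 3.2, and cell type scores were transferred from a reference of single nuclei. For sham day 3 the deposited table holds raw UMI counts (32285 genes). The other 4 deposited tables (14466 to 15300 genes) hold counts corrected for depth by sctransform, which are a score rather than raw counts, and per-spot totals matched the deposited corrected totals. The deposited metadata give raw UMI counts per spot and the cell type scores, each a fraction of 1 over 11 types. In the metadata the authors also gave each spot's image position in pixels.

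Values were scaled to CPM over the 13711 genes shared by all tables, which hold 99.8% to 99.9% of the values, and averaged over the spots of a section, class or position. The section was the replicate, and where the labels did not name the animals, p-values measure only the spread between sections. No columns were left unmapped. limma 3.58.1 (R 4.3.3) was run on log2(CPM + 1) with a trended prior, two-sided, over genes with at least 1 CPM in at least 2 columns, with Benjamini-Hochberg adjustment and a threshold of 0.05. No count model was used, because 4 tables are corrected values. A fold change on this scale understates that of low genes. The script was tested on simulated data. Edge spots had fewer than 6 neighbours within 1.25 times the median spacing, and classes needed 20 spots. Alternatives were other scalings, pseudocounts of 0.1 and 5, no filter, sham day 3 corrected with sctransform 0.4.2, sums over spots, no covariate, other class and edge rules, and leaving out each section. The restrictions to spots of at least 5000 UMIs and to contiguous tissue were chosen after seeing the data. The 9 genes and the gene lists were chosen with earlier results of these data known. Of the other disc genes, those named passed an adjusted p of 0.05 (at most 5 per comparison) or had the 2 largest differences at 20 CPM or more, and for each of the 9 genes the 3 genes with the highest mean rho were taken. Comparisons that share sections are not independent of each other. Of the listed disc genes, 1 is not reported here, and their counts leave it out.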

Additional observations from a re-analysis of the deposited data

Results flagged for a closer look

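For 3 listed disc genes the fitted CM4 minus CM1 difference was higher in MI than in sham sections past an adjusted p of 0.05 (limma), which is the reason they are set apart here. The classes were made from the same expression values, so this is a description and not an independent test. The difference of differences was 1.74 for Xirp2 (SE 0.43), 1.89 for Gja5 (SE 0.42) and 0.94 for Dbn1 (SE 0.22), on the log2 scale, against a median of 0.28 over all genes. Gja5 measured 24.5, 16.1 and 14.2 CPM in CM4-dominant spots of the 3 MI sections, and 6.31 and 5.89 CPM in those of the 2 sham sections. In CM1-dominant spots it measured 4.10, 6.71 and 7.33 CPM in MI, and 11.3 and 6.58 CPM in sham. Of 45 values recomputed under other settings, 25 did not pass the adjusted threshold that the main values passed.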

How the results depend on the processing

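No alternative brought any of the 9 genes to a call, in any comparison with a test. Of 1125 recomputed values of the 9 genes, 1034 kept their direction and side of the threshold, or moved by less than the spread between sections, and 91 did not, all of them uncalled. Under median-of-ratios scaling the median of the 9 genes moved from -0.03 to -0.0930 for MI against sham at day 3, and from -0.04 to -0.132 for CM4-dominant against CM1-dominant spots. With each section left out in turn, that CM4 median ran from -0.0910 to -0.000968, and the number of the 9 genes called ran from 0 to 0 in each tested comparison. Removing the section block from the edge fit (no replicate block) called 0 of the 9 genes, as with the block, with a lowest adjusted p of 0.719 by limma. No paired analysis was possible for MI against sham because only MI day 7 has a second section, and replicate numbers only name the sections.

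Calls over all genes moved with the setting. For MI against sham across days they were 1 higher and 0 lower, and 319 and 47 without sham day 7, 81 and 6 without MI day 7 replicate 1, 26 and 8 without MI day 3 and 24 and 5 without sham day 3. Day 7 against day 3 gave 32 higher and 45 lower, and 131 and 62 under median-of-ratios scaling and 121 and 637 without sham day 7. Edge against interior gave 98 higher and 539 lower, 175 and 51 under median-of-ratios scaling, 123 and 99 without mitochondrial and haemoglobin genes, and 0 and 1 with no replicate block. The CM4 difference by operation gave 210 higher and 20 lower, and 20 and 34 under median-of-ratios scaling and 2 and 1 in interior spots. MI against sham at day 7 gave 24 higher and 6 lower, and 0 and 0 under both other scalings. MI against sham across days within CM1-dominant spots gave 24 higher and 8 lower, and 1 and 0 with no covariate. Of 313 values of the named partner genes, 60 lost a call and 1 gained one. Groups held 1 or 2 sections, and UMIs per spot of Ctnna3, Dsg2 and Dsc2 averaged 0.300 to 0.772 in sham day 3, and which of these limits the comparisons more was not compared.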
